A study of Mus musculus with 12 samples.

Results

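General capillary endothelial nuclei are the nuclei of the cells that line most of the fine vessels around the air sacs of the lung. They were picked from single-nucleus RNA sequencing of 12 mouse lungs, in which each nucleus carries a barcode and each captured RNA molecule a unique molecular identifier (UMI). A nucleus was a member when its barcode held 200 to 6000 genes and at most 5% mitochondrial UMIs, when it held at least 3 UMIs over at least 2 of the 7 genes Kit, Glp1r, Bmp6, Sema3c, Tek, Npr3 and Sox11, and when these outnumbered the UMIs of 11 genes of other vessels and cells (Ednrb, Edil3, Slc5a12, Vwf, Slc6a2, Gja5, Bmx, Mmrn1, Itga8, Scube2 and Rtkn2). In all, 7738 of 47319 kept nuclei (16.4%) were members, and they held 24733871 of the 184940649 UMIs of the series.

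C57BL/6J mice were given PBS or bleomycin (1.2 U/kg), a drug that damages the lung and brings on fibrosis, into the trachea at 7 weeks of age. From day 5 they were given NVP-BHG712, which blocks the kinase of the EphB4 receptor, or its vehicle of N-methyl-2-pyrrolidone and polyethylene glycol by mouth for 5 days, and lungs were taken on day 14. The groups were PBS + vehicle, PBS + NVP-BHG712, bleomycin + vehicle and bleomycin + NVP-BHG712, with 3 mice and 1 library per mouse in each. All mice were wild type, and their sex was not stated for these lungs.

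The capillary endothelium of the alveolus is made of general capillary cells and aerocytes. General capillary cells carry the receptor tyrosine kinases Kit and Tek, respond to VEGF, take up lipid, control vascular tone and divide after injury to renew the capillary bed. Aerocytes, which lie at the thinnest gas exchange surface, are marked by Ednrb, Edil3 and Car4 and descend from general capillary cells. Endothelial sheets are held together by VE-cadherin, and ephrin-B2 on one vessel cell binds EphB4 on its neighbour, which helps to keep arterial and venous sides apart.

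Genes outside the rule followed the label. Levels in this paragraph are means over the 12 libraries in counts of a gene per 1000000 UMIs (CPM). Plvap, a component of the diaphragms of endothelial pores, was at 132 CPM in members, 5.41 in aerocyte nuclei and 9.9 in all other nuclei. Cd93 was at 212, 7.3 and 12.4 CPM in the same order. Ptprb, the phosphatase that restrains the Tek receptor, was at 1755, 24.7 and 92.9 CPM. The aerocyte gene Car4 went the other way, with 41 CPM in members and 628 in aerocyte nuclei. These levels describe the nuclei that the rule took and are not tests.

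Of the members, 94.7% also held at least 3 UMIs over at least 2 of 14 pan-endothelial genes. Among the rule's own genes, Sema3c had a UMI in 85.06% of members, against 44.28% of aerocyte nuclei and 21.17% of all other nuclei, and Kit in 63.1%, against 1.929% and 3.636%. Sox11 and Glp1r were seen in fewer members, with 22.81% and 17.8%. Summed levels of the mast cell, megakaryocyte and neutrophil lists, whose cells can also carry Kit or Tek, reached at most 11.5, 7.33 and 14.8 CPM in members of any library. At the edge of the rule, 439 members held exactly 3 UMIs of the first set and 4991 held over 10. Just outside it, 608 nuclei held 2 UMIs over 2 genes, 671 held enough UMIs but of 1 gene, and 1957 were left out by the second set, 189 of them tied.

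The bleomycin + vehicle libraries stood apart before any gene was tested. In them 42.35% to 78.31% of members also held at least 3 UMIs over at least 2 markers of a class that is not endothelial, against 8.065% to 40.39% in the other 9 libraries; such nuclei are called mixed here and can be doublets or nuclei that carry free RNA. Mixed nuclei made up 45.2% of all members, most often with type II alveolar markers (33.6% of members). The summed level of the 14 pan-endothelial genes in members was 5430, 7090 and 11300 CPM in bleomycin + vehicle replicates 1 to 3, against 15100 to 18400 CPM in the other libraries. The 9 general capillary genes outside the rule summed to 433, 594 and 1180 CPM, against 1220 to 1850 CPM.

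In the same 3 libraries the summed type II alveolar level in members was 729, 2630 and 2630 CPM, against 383 to 981 CPM elsewhere. The fibroblast list, with Col1a1 and Pdgfra among its genes, summed to 1160, 442 and 369 CPM, against 47.7 to 310 CPM. Mitochondrial genes gave 0.876% to 1.76% of member UMIs, against 0.0837% to 0.211%. Gm42418, a locus that overlaps ribosomal RNA sequence, took 13.4%, 7.53% and 1.34% of member UMIs in these 3 libraries, against 0.601% to 1.48% in the others. AY036118, which lies in the same kind of sequence, measured 929, 683 and 575 CPM (TMM-scaled) in them, against 22.7 to 188 CPM, and was called in both comparisons that include them (2.67 ± 0.52 and -3.72 ± 0.59). The first of these calls was lost without PBS + vehicle replicate 2 or 3 or bleomycin + vehicle replicate 1 or 2. Aerocyte nuclei of these libraries came nearer to the rest, with a pan-endothelial sum of 10800 to 12000 CPM against 11500 to 14500 CPM. Among members that were not mixed, the sum was 13500, 13000 and 18500 CPM, against 18500 to 22400 CPM, so that part of the gap remained when mixed nuclei were left out.

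**Figure D1:**
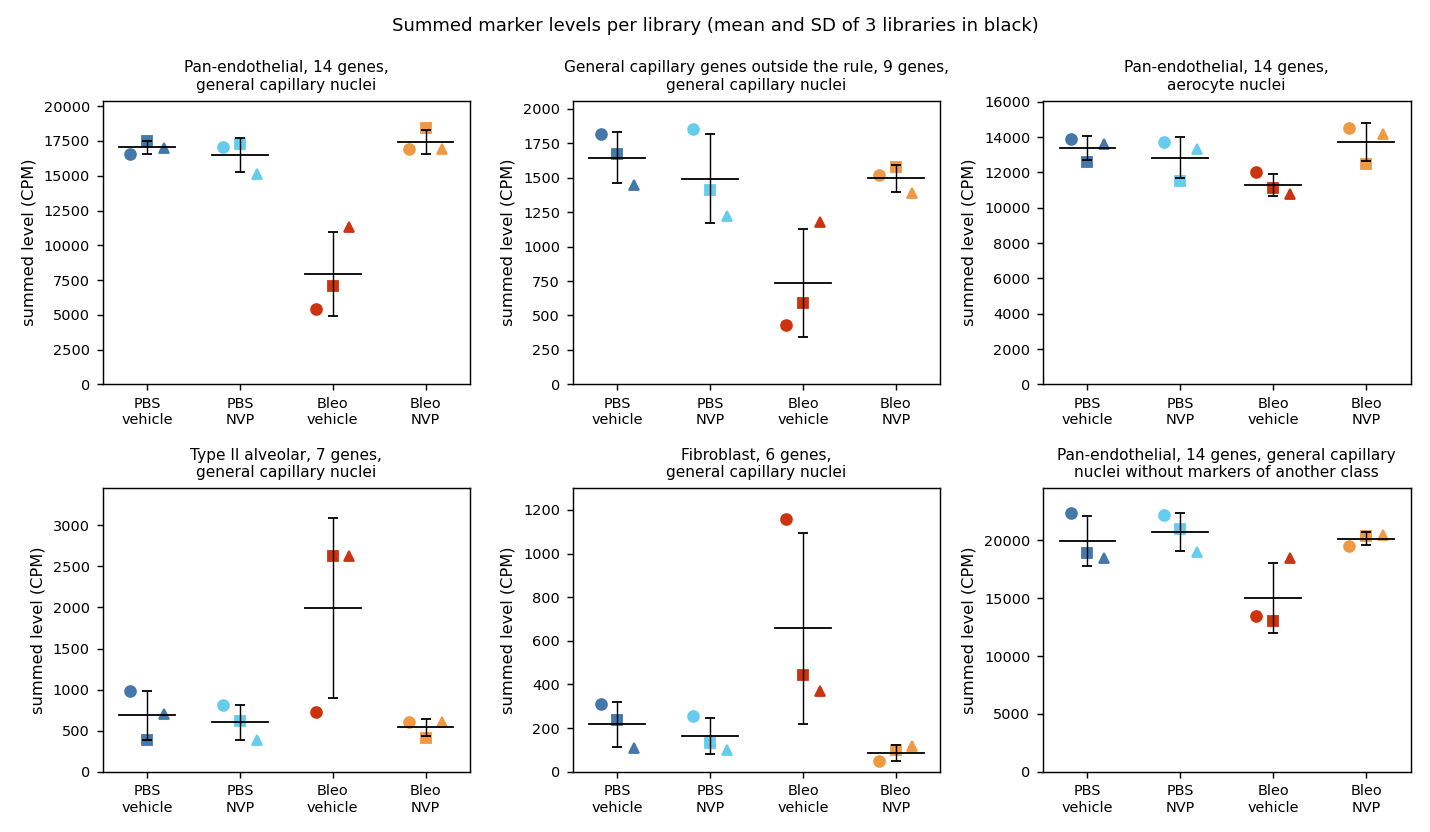
Summed marker levels per library in CPM (y axis, from 0) for the 4 groups (x axis), for all members, for aerocyte nuclei and, lower right, for members that were not mixed. Circles, squares and triangles are replicates 1, 2 and 3, and black bars are the mean and SD of 3 libraries. Pan-endothelial sums of the bleomycin + vehicle members lie at 5430 to 11300 CPM, below all other libraries, while their type II and fibroblast sums reach 2630 and 1160 CPM.

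The labels place the PBS libraries in sequencing runs 1 to 3, the bleomycin + NVP-BHG712 libraries in run 4 and the bleomycin + vehicle libraries in batches 6 and 7. Batch and group cannot be told apart for any comparison that includes bleomycin. Library depth ran from 3556084 to 61947690 UMIs, and member sums from 272711 UMIs (bleomycin + NVP-BHG712 replicate 1) to 9080197 UMIs (bleomycin + vehicle replicate 3). Of 47026 distinct barcodes, 293 occurred in more than 1 library, at most 32 in any pair. Outside the bleomycin + vehicle group, the nuclei that are not members were often most alike across groups. PBS + vehicle replicate 1 was nearest to PBS + NVP-BHG712 replicate 1, and PBS + NVP-BHG712 replicate 2 to bleomycin + NVP-BHG712 replicate 2, with mean chi-square values per gene of 3.931 and 2.074. Bleomycin + vehicle libraries were at least 20.83 from their nearest library. These values grow with depth and were not corrected for it. The 20.83 was between the deepest library, bleomycin + vehicle replicate 3, and the shallowest, bleomycin + NVP-BHG712 replicate 1.

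With mixed nuclei counted, the share of general capillary nuclei differed between mice of 1 group by as much as between groups. Members made up 22.9%, 15.7% and 12.1% of kept nuclei in PBS + vehicle, 22.1%, 13.4% and 13.2% in PBS + NVP-BHG712, 3.74%, 9.33% and 19.0% in bleomycin + vehicle and 10.5%, 15.6% and 12.7% in bleomycin + NVP-BHG712. All 4 groups overlapped. The mean share was 10.7% ± 7.74 (SD, n = 3) in bleomycin + vehicle and 16.9% ± 5.51 in PBS + vehicle, a difference of -6.21 percentage points (two-sided exact permutation test, p = 0.4). Between 3 and 3 libraries this test cannot give a p under 0.1. Over all 6 bleomycin against all 6 PBS libraries the difference was -4.75 points (exact permutation p = 0.132, 0.66 after Benjamini-Hochberg adjustment over 5 comparisons). Members that were not mixed made up 2.15%, 4.20% and 4.13% of kept nuclei in bleomycin + vehicle, against 9.67% to 15.1% in the other libraries. Bleomycin + vehicle minus PBS + vehicle was then -9.41 points, and bleomycin + NVP-BHG712 minus bleomycin + vehicle 8.03 points (exact permutation p = 0.1, adjusted 0.167 each). All 6 bleomycin against all 6 PBS libraries gave -5.33 points (exact permutation p = 0.0303, adjusted 0.151). Mixed nuclei stayed in the count of kept nuclei here, so these shares also depend on how frequent mixed members were.

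Counted among endothelial nuclei only, the groups other than bleomycin + vehicle lay close together. Members were 47.8% ± 0.419 of endothelial nuclei in bleomycin + NVP-BHG712, 46.0% ± 3.03 in PBS + vehicle and 47.1% ± 3.59 in PBS + NVP-BHG712 (SD, n = 3 each). In bleomycin + vehicle they were 15.1%, 26.9% and 46.6%, all below the 47.3% to 48.1% of bleomycin + NVP-BHG712, and the difference of 18.3 points reached the smallest p that the exact permutation test allows (p = 0.1, adjusted 0.5). Against PBS + vehicle the groups overlapped, with a difference of -16.5 points (exact permutation p = 0.2, adjusted 0.5). Thinning to 1000 UMIs left out the 7636 of 47319 nuclei that were shallower, unevenly between libraries (1034 of 2274 in bleomycin + vehicle replicate 1 and 54 of 3771 in PBS + vehicle replicate 1). Among the thinned nuclei, the shares of endothelial nuclei were 26.7% ± 20.6 in bleomycin + vehicle and 55.2% ± 4.48 in PBS + vehicle, without overlap (exact permutation p = 0.1, adjusted 0.25). With 50.1% in bleomycin + NVP-BHG712, that group then overlapped bleomycin + vehicle (exact permutation p = 0.2), so neither separation held on both of these scales. Both scales count mixed nuclei. Among kept nuclei and without mixed members, bleomycin + vehicle (mean 3.49%) overlapped neither PBS + vehicle (12.9%) nor bleomycin + NVP-BHG712 (11.5%). Leaving out mixed nuclei takes most from bleomycin + vehicle, where they were most frequent. The share of all nuclei rests on bleomycin + vehicle replicates 1 and 3: without replicate 1 the bleomycin + NVP-BHG712 minus bleomycin + vehicle difference was -1.24 points, and without replicate 3 it was 6.41 points.

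**Figure D2:**
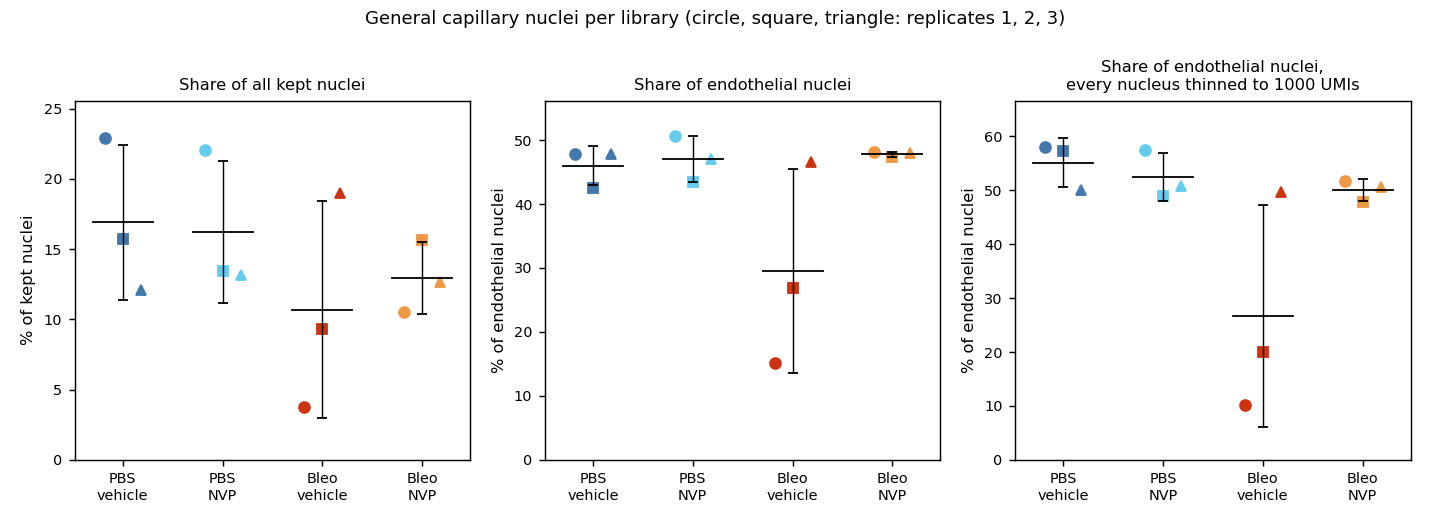
Share of general capillary nuclei per library in percent (y axis, from 0) by group (x axis), among all kept nuclei, among endothelial nuclei, and among endothelial nuclei after thinning to 1000 UMIs. Symbols are replicates 1 to 3 and bars the mean and SD of 3 libraries. Bleomycin + vehicle spans 15.1% to 46.6% of endothelial nuclei, while bleomycin + NVP-BHG712 spans 47.3% to 48.1%.

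Between bleomycin and PBS under vehicle, 11 of 14 pan-endothelial genes and 4 of 11 junction genes fell in members of the bleomycin libraries, among them Cdh5 and Pecam1, and the rises included Apoe, Spp1, Fn1 and Sftpc. The UMIs of members were summed per library and tested with edgeR's quasi-likelihood test, and a gene was called when its Benjamini-Hochberg adjusted p was under 0.05. Per-gene levels are CPM with TMM scaling from here on, and changes are log2 with their standard error (SE). A change relative to the pan-endothelial list comes from a second fit, added after the data had been seen, in which library sizes were the UMIs of those 14 genes. Of 8186 genes tested, 415 (5.07%) were called, of which 241 (2.94%) rose and 174 (2.13%) fell. Whether a gene was high in general capillary nuclei went with its direction: 172 of the 174 falls, but only 37 of the 241 rises, were at least as high in members as in all other nuclei. Of the 3960 tested genes with that property, 4.34% fell and 0.934% rose. Without the mixed members, 108 genes rose and 21 fell. In bulk sums, fewer capillary transcripts per nucleus and more RNA from other cells in the same barcode cannot be told apart.

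Cyyr1, a small membrane protein of unclear role, lies on chromosome 16 (GRCm38, 85421533 to 85553397, minus strand) and was among the highest of the falls. It measured 2260, 3200 and 3220 CPM in PBS + vehicle and 757, 887 and 1430 CPM in bleomycin + vehicle. The groups did not overlap, as for 25.8% of all genes tested, and the change was -1.49 ± 0.25 (edgeR adjusted p = 0.0058), a call kept without any single library. Cdh5, the gene of VE-cadherin, measured 377, 389 and 478 CPM in PBS + vehicle. In bleomycin + vehicle it measured 176, 167 and 222 CPM, a fall of 1.12 ± 0.18 that also kept its call without any single library (edgeR adjusted p = 0.00577). Without mixed members the change of Cdh5 was -0.54 (edgeR adjusted p = 0.238) and that of Cyyr1 -0.80 (edgeR adjusted p = 0.0351).

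Sema6d, a membrane semaphorin that guides axons and vessels, had the largest fall of any named gene with more than 100 CPM on average. On chromosome 2 (GRCm38, 124089969 to 124667770, plus strand), it measured 618, 1110 and 1500 CPM in PBS + vehicle and 140, 258 and 341 CPM in bleomycin + vehicle. The change was -2.07 ± 0.36 (edgeR adjusted p = 0.0098), and it was not called without bleomycin + vehicle replicate 2. Leaving out mixed members gave -1.63 (edgeR adjusted p = 0.00444). Gimap8, a GTPase of the immune-associated family, went from 140, 237 and 285 CPM to 35.1, 71.3 and 84.2 CPM. The adenylate cyclase Adcy4 (-1.3 ± 0.19), Rasgef1a (-1.35 ± 0.23), Arhgap28 (-1.31 ± 0.22) and Egfl7, a secreted endothelial matrix protein (-1.49 ± 0.26), kept their falls without any single library, as Gimap8 did. Arhgap28 was at -1.27 in the nuclei that are not members as well.

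Of the 14 pan-endothelial genes, 11 fell and none rose, with a median change of -1.08, against 0.023 over all genes tested, and of -0.04 relative to the list itself. These are also genes that mark the cells, so their fall is the same measurement as the lower pan-endothelial sum above. Among them were the adhesion molecule Pecam1 (-0.86 ± 0.22, but 0.26 relative to the list), the TGF-beta co-receptor Eng (-1.3 ± 0.26), the orphan receptor Tie1 (-0.99 ± 0.24, but 0.01) and Emcn, a sialomucin of capillaries and veins (-1.65 ± 0.40). Of the 9 general capillary genes outside the rule, only Cd93 fell, by 1.18 ± 0.31, and the median was -1.07. The junction and barrier list had 4 falls among 11 tested (median -0.86, but 0.26 relative to the pan-endothelial list), namely Cdh5, Pecam1, Esam and the sphingosine-1-phosphate receptor S1pr1 (-1.18 ± 0.26).

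Both falls and rises were called among receptors and regulators of vessel growth. The main VEGF receptor Kdr measured 122, 111 and 93.2 CPM in PBS + vehicle and 38.3, 55.2 and 70.0 CPM in bleomycin + vehicle (-0.93 ± 0.25, edgeR adjusted p = 0.045, but 0.06 relative to the pan-endothelial list). Flt1, the decoy receptor, fell by 0.66 ± 0.18 (but was at 0.47 relative to that list), and the neuropilin Nrp2, a co-receptor, rose by 1.3 ± 0.32, while the ligand Vegfa was not called at 0.02. In all, 1 of the 8 VEGF genes tested rose and 2 fell, with a median of -0.42 that turned to 0.59 relative to the list. Of 16 tested BMP and TGF-beta genes, Bmpr2, the type II BMP receptor (-1.06 ± 0.22, but 0.03 relative to the list), and Eng fell, and Tgfb2 rose by 1.22 ± 0.33. The rises were of genes lower in members than in other nuclei, with Nrp2 at 67.5 against 141 CPM and Tgfb2 at 40.3 against 83.3 CPM (means over the 12 libraries without TMM scaling). Bmpr2 was at 2540 against 545 CPM. Without mixed members the changes of Flt1 and Tgfb2 turned sign. Notch1, one of 11 tested Notch genes, fell by 0.92 ± 0.21 (but was at 0.11 relative to the list). Klf4, a transcription factor induced by flow, measured 126, 116 and 99.0 CPM in PBS + vehicle and 57.5, 42.0 and 47.9 CPM in bleomycin + vehicle, a fall of 1.27 ± 0.21.

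Many of these calls rest on single libraries. Without PBS + vehicle replicate 2, PBS + vehicle replicate 3 or bleomycin + vehicle replicate 2, the calls of Tie1, Pecam1, Emcn, Ptprb, Bmpr2, Notch1, Esam, S1pr1, Nrp2, Kdr and Flt1 were each lost, and Nrp2, Kdr and Flt1 also without PBS + vehicle replicate 1. Emcn, Pecam1, Nrp2 and Kdr were also not called without bleomycin + vehicle replicate 1, Emcn, Pecam1, Kdr and Flt1 without bleomycin + NVP-BHG712 replicate 3, Kdr and Flt1 without its replicate 1, and Flt1 further without its replicate 2 or without PBS + NVP-BHG712 replicate 2 or 3. Klf4 and Eng were lost without bleomycin + vehicle replicate 2 alone, and Tgfb2 without any library other than bleomycin + NVP-BHG712 replicate 2. Cd93 was lost without any library other than PBS + NVP-BHG712 replicate 1 or 3 or bleomycin + vehicle replicate 3. The total count of calls fell to 46 without bleomycin + vehicle replicate 2, 52 without PBS + vehicle replicate 2 68 without PBS + vehicle replicate 3 and 268 without bleomycin + NVP-BHG712 replicate 3, and rose to 748 without bleomycin + vehicle replicate 3. In every leave-one-out fit, 27 rises and 8 falls kept their call.

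**Figure D3:**
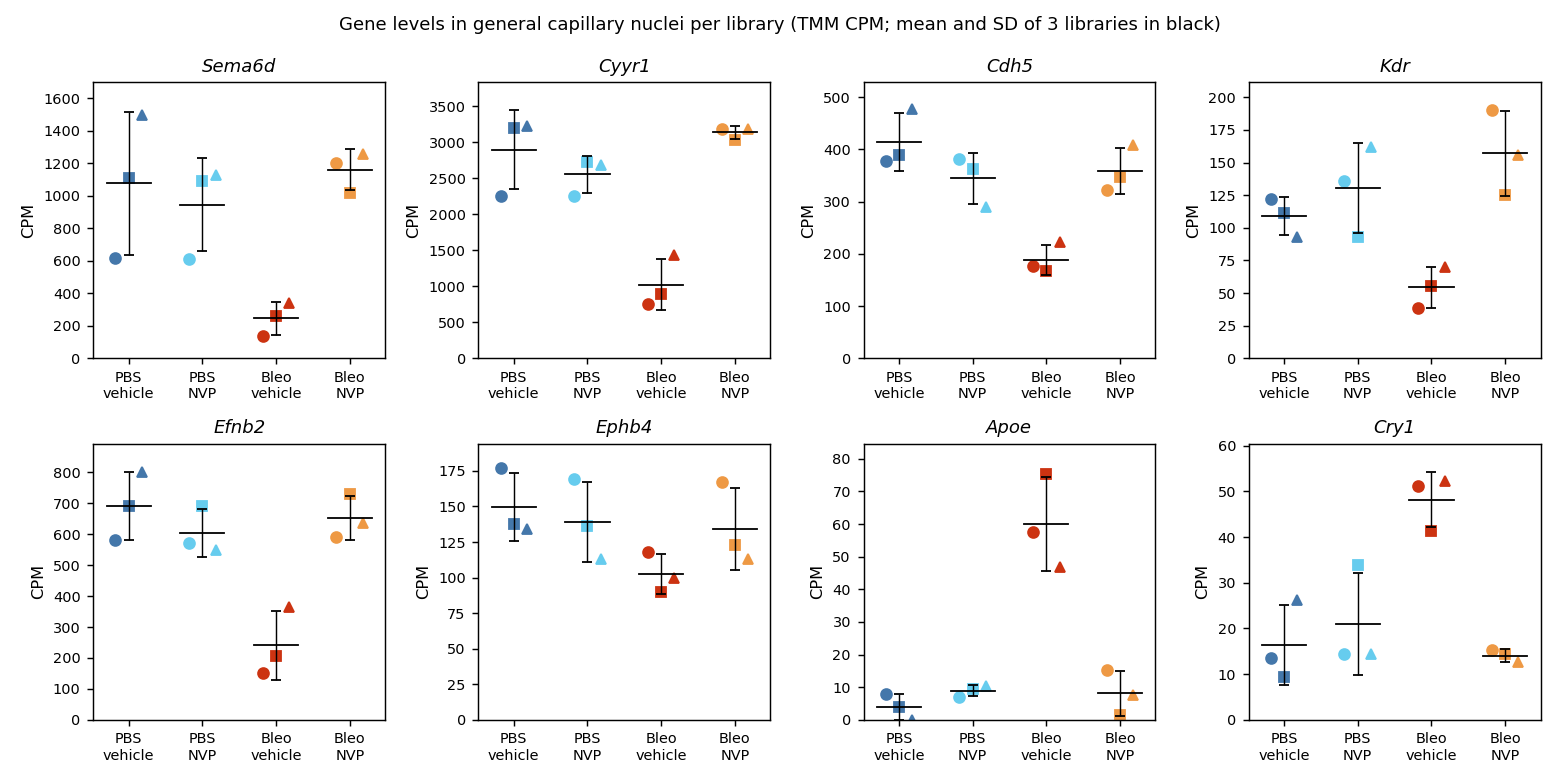
TMM-scaled CPM of 8 genes in general capillary nuclei (y axis, from 0) by group (x axis), with symbols for replicates 1 to 3 and bars for the mean and SD of 3 libraries. Sema6d, Cyyr1, Cdh5, Kdr and Efnb2 are lower in every bleomycin + vehicle library than in any other library, and Apoe and Cry1 higher. With library sizes set to the pan-endothelial list, the bleomycin + vehicle against PBS + vehicle change of Kdr turned from -0.93 to 0.06, and that of Cdh5 under NVP-BHG712 after bleomycin from 0.92 to -0.23.

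The genes that rose were of other kinds. Apoe, the lipid carrier of macrophages and other cells, measured 7.94, 4.05 and 0 CPM in PBS + vehicle and 57.5, 75.3 and 46.8 CPM in bleomycin + vehicle. It rose by 3.33 ± 0.5 (edgeR adjusted p = 0.00388), kept its call without any single library, and rose by 2.87 in the nuclei that are not members. Spp1, the gene of osteopontin, which injured lung macrophages make, measured 8.42, 2.7 and 14.6 CPM in PBS + vehicle and 533, 139 and 50.6 CPM in bleomycin + vehicle. Its change of 4.84 ± 0.99 was accompanied by one of 5.41 in nuclei that are not members, and was not called without any one of the PBS + vehicle libraries or bleomycin + vehicle replicate 2. Other rises included the ferritin light chain Ftl1 (1.96), the ribosomal protein gene Rpl37 (1.95), and, lower in members than elsewhere, the ferritin heavy chain Fth1 (2.34), Fgf13 (3.85) and Sorcs2 (2.65), and the last 3 kept their calls without any single library. Ftl1 and Rpl37 were each lost without PBS + vehicle replicate 2 or 3 or bleomycin + vehicle replicate 2 and without at least 1 further library. Sftpc, the surfactant gene of type II cells, rose by 2.35 ± 0.5, to 284, 1640 and 1550 CPM from 229, 186 and 283 CPM, a call lost without bleomycin + vehicle replicate 2 or any PBS + vehicle library.

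Rises were called for 3 of 13 basement membrane genes and 1 of 8 injury-associated capillary genes, against 2.94% of all genes tested. Fibronectin (Fn1) measured 41.6, 33.7 and 32.0 CPM in PBS + vehicle and 661, 260 and 129 CPM in bleomycin + vehicle, a rise of 3.17 ± 0.55 (edgeR adjusted p = 0.0141) that was lost without PBS + vehicle replicate 2 or 3. Without mixed members Fn1 still rose, by 4.37 (edgeR adjusted p = 0.011), and the summed fibroblast markers of the same nuclei were at 215, 251 and 122 CPM in bleomycin + vehicle, against 23.7 to 64.9 CPM in the other libraries. Their part in the Fn1 rise was not tested. Fn1, Hspg2 (perlecan, 1.92 ± 0.44) and Lamc1 (a laminin chain, 1.03 ± 0.26) were the 3 rises among 13 tested basement membrane genes, with no fall and a list median of 0.62. Only 5 of the 13 were at least as high in members as in other nuclei. Fn1 was at 103 CPM in members and 267 CPM in other nuclei, and Lamc1 at 120 and 274 CPM (means over the 12 libraries without TMM scaling). Relative to the pan-endothelial list 11 of the 13 rose, and so did 64.1% of all genes tested. Lrg1, a secreted glycoprotein that modifies endothelial TGF-beta signalling, measured 3.61, 1.35 and 2.91 CPM in PBS + vehicle and 16.0, 15.5 and 21.6 CPM in bleomycin + vehicle (2.59 ± 0.62, edgeR adjusted p = 0.0311). It was the only call among the 8 tested injury-associated capillary genes, and it was lost without PBS + vehicle replicate 3. Hspg2 and Lamc1 lost their calls without PBS + vehicle replicate 2 or 3 or bleomycin + vehicle replicate 2, and Lamc1 also without bleomycin + vehicle replicate 1, PBS + NVP-BHG712 replicate 2 or bleomycin + NVP-BHG712 replicate 2.

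No gene was called in either direction among the tested interferon-stimulated genes (9 of 15 tested), the MHC genes (10 tested), the p53 targets (8 of 14), the immediate-early genes (7 of 12), the mesenchymal transition list (7 of 12) or the glucocorticoid list (5 of 8). Of 15 proliferation genes only 2 had enough UMIs to be tested, and 1 of them, the formin Diaph3, rose by 1.74 ± 0.43, a call lost without any PBS + vehicle library or bleomycin + vehicle replicate 2. Cd36, a fatty acid transporter of capillaries, was the 1 fall among 5 tested lipid uptake genes (-1.05 ± 0.24), and Pde3a, a phosphodiesterase, the 1 fall among 14 vasoactive genes (-1.21 ± 0.32). Of all genes tested, 2.13% fell. Relative to the pan-endothelial list neither Cd36 nor Pde3a was called as falling, and the medians of their lists were 1.75 and 0.82. Cd36 and Pde3a both lost their TMM-scaled call without PBS + vehicle replicate 2 or 3 or bleomycin + vehicle replicate 2, and Pde3a also without bleomycin + NVP-BHG712 replicate 1 or 3.

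Between NVP-BHG712 and vehicle after bleomycin, 10 of 14 pan-endothelial genes rose in members of the NVP-BHG712 libraries, and 4 of 13 basement membrane genes fell, as did Apoe, Spp1 and Rpl13. Of the 8186 genes tested, 716 (8.75%) were called, with 268 rises (3.27%) and 448 falls (5.47%). Of the rises, 264 were at least as high in members as in all other nuclei, and so were 79 of the falls, or 6.67% and 1.99% of the 3960 genes with that property. This comparison shares its 3 bleomycin + vehicle libraries with the one above, so opposite directions follow in part from the same libraries and are given side by side only. Without the mixed members, 30 genes rose and 133 fell. The count was 157 without bleomycin + vehicle replicate 2, 160, 150 and 225 without bleomycin + NVP-BHG712 replicates 1, 2 and 3, and 1056 without bleomycin + vehicle replicate 3. In every leave-one-out fit 30 rises and 58 falls kept their call.

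Sema6d measured 1200, 1020 and 1260 CPM in bleomycin + NVP-BHG712, against 140, 258 and 341 CPM in bleomycin + vehicle, a rise of 2.19 ± 0.36 (edgeR adjusted p = 0.00672). Cyyr1 measured 3190, 3030 and 3190 CPM, against 757, 887 and 1430 CPM, a rise of 1.61 ± 0.25 (edgeR adjusted p = 0.00546). Neither pair of groups overlapped, as for 31.3% of all genes, and both calls held without any single library and without mixed members (1.78 and 0.92). Rasgrp3, a Ras exchange factor of endothelium, measured 800, 800 and 755 CPM, against 95.8, 134 and 279 CPM (2.14 ± 0.39), and hemicentin (Hmcn1), a matrix protein of basement membranes, measured 4940, 3110 and 4240 CPM, against 935, 988 and 1890 CPM (1.68 ± 0.3). Foxf1, the transcription factor needed for lung capillaries, rose by 1.64 ± 0.28, the growth factor gene Pdgfd by 1.48 ± 0.28, and the adhesion receptor Adgrl2 by 1.44 ± 0.28, each call held without any single library. Relative to the pan-endothelial list, only 18 genes (0.22%) were called as rising. Sema6d, Cyyr1, Rasgrp3 and Hmcn1 were among them, and Foxf1, Pdgfd and Adgrl2 were not.

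Of the 14 pan-endothelial genes 10 rose and none fell, with a median of 0.97 against -0.049 over all genes tested and -0.17 relative to the list itself. Kdr measured 190, 125 and 156 CPM in bleomycin + NVP-BHG712, a rise of 1.42 ± 0.26 (edgeR adjusted p = 0.008) that held without any single library. Egfl7 rose by 1.59 ± 0.26 and Bmpr2 by 1.15 ± 0.22, also without loss. Kdr, Egfl7 and Bmpr2 were not among the 18 genes called as rising relative to the list. Cdh5 rose by 0.92 ± 0.19 (but was at -0.23 relative to the list), a call lost without bleomycin + vehicle replicate 2 or bleomycin + NVP-BHG712 replicate 3, and Klf4 by 0.97 ± 0.22 (-0.20 relative to the list), a call lost without bleomycin + vehicle replicate 2 or bleomycin + NVP-BHG712 replicate 1 or 2. Of 11 junction genes 4 rose, with a median of 0.61 that turned to -0.43 relative to the pan-endothelial list. The flow-induced factors Klf2 (1.08, but -0.07 relative to the list) and Klf4 were the 2 rises among 6 shear response genes, and Klf2 was not called without bleomycin + vehicle replicate 1 or 2 or any one bleomycin + NVP-BHG712 library. Angpt1, the Tek ligand that mesenchymal cells make, fell by 1.68 ± 0.41. It was at 708 CPM in other nuclei and 150 CPM in members, and its call was lost without bleomycin + vehicle replicate 2 or 3 or bleomycin + NVP-BHG712 replicate 1 or 3.

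Among the falls, the ribosomal protein gene Rpl13 went from 54.3, 43.1 and 46.5 CPM in bleomycin + vehicle to 7.58, 4.79 and 2.52 CPM (-3.31, edgeR adjusted p = 0.00381), and Rps9 (-2.88) and Rpl41 (-2.35) also kept their calls without any single library. Fn1 measured 19.0, 30.4 and 20.1 CPM in bleomycin + NVP-BHG712 and fell by 3.78 ± 0.62, again without loss. Spp1 measured 3.79, 4.79 and 0 CPM and fell by 6.17 ± 1.27, a call that ended without any one bleomycin + NVP-BHG712 library. Apoe measured 15.2, 1.6 and 7.55 CPM and fell by 3.17 ± 0.59, a call lost without bleomycin + NVP-BHG712 replicate 2. Of the 13 basement membrane genes 4 fell, of the 7 mesenchymal transition genes 4, of the 5 tested fibroblast markers 3 and of the 7 type II markers 3, with none rising in any of these lists. Falls were called for 5.47% of all genes tested. In the same order, 5 of 13, 3 of 7, 1 of 5 and 0 of 7 genes of these lists were at least as high in members as in other nuclei. The adhesion molecule Icam1, a target of inflammatory signals, measured 30.3, 33.5 and 27.7 CPM, against 79.8, 89.1 and 79.7 CPM in bleomycin + vehicle (-1.43 ± 0.32), and was the 1 call among 4 tested genes of leukocyte adhesion. Icam1 lost its call without bleomycin + vehicle replicate 2 or any one bleomycin + NVP-BHG712 library.

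The drug's target was measured in every library. Ephb4 (chromosome 5, GRCm38, 137350109 to 137378669, plus strand) was at 177, 138 and 134 CPM in PBS + vehicle, 169, 136 and 113 CPM in PBS + NVP-BHG712, 118, 89.7 and 100 CPM in bleomycin + vehicle and 167, 123 and 113 CPM in bleomycin + NVP-BHG712. Bleomycin + vehicle was the lowest group, but neither of its comparisons was called: -0.59 ± 0.21 against PBS + vehicle (edgeR adjusted p = 0.12) and 0.40 ± 0.22 for bleomycin + NVP-BHG712 against it (edgeR adjusted p = 0.286). Relative to the pan-endothelial list the signs turned, to 0.53 (edgeR adjusted p = 0.127) and -0.79 (edgeR adjusted p = 0.0366). A kinase inhibitor acts on the protein, so the RNA level is no check of the treatment.

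Efnb2, the gene of the ligand ephrin-B2, was the 1 call among the 4 tested genes of EphB receptors and ephrin-B ligands. On chromosome 8 (GRCm38, 8617434 to 8661242, minus strand), it measured 581, 691 and 801 CPM in PBS + vehicle, 572, 693 and 550 CPM in PBS + NVP-BHG712, 150, 207 and 365 CPM in bleomycin + vehicle and 592, 732 and 635 CPM in bleomycin + NVP-BHG712. No bleomycin + vehicle library reached any other library. The fall against PBS + vehicle was 1.47 ± 0.26 (edgeR adjusted p = 0.00762, lost without bleomycin + vehicle replicate 2), and the rise under NVP-BHG712 after bleomycin was 1.40 ± 0.26 (edgeR adjusted p = 0.00884). Under PBS, neither gene was called between NVP-BHG712 and vehicle, with -0.19 ± 0.25 for Efnb2 and -0.10 ± 0.21 for Ephb4. Efnb1 (-0.72) and Ephb1 (0.26) were not called between bleomycin and PBS, and the other 4 genes of the list did not have enough UMIs.

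Among genes of the circadian clock, the repressors Per2 and Cry1 rose in bleomycin + vehicle and Nr1d1 fell. Per2 measured 17.1, 29.7 and 11.7 CPM in PBS + vehicle, 51.1, 106 and 81.7 CPM in bleomycin + vehicle and 26.5, 27.2 and 25.2 CPM in bleomycin + NVP-BHG712. It rose by 2.05 ± 0.34 (edgeR adjusted p = 0.00577), a call kept without any single library, and fell by 1.64 ± 0.35 between NVP-BHG712 and vehicle after bleomycin (edgeR adjusted p = 0.0151). Cry1, the partner of the Per proteins (chromosome 10, GRCm38, 85131700 to 85185064, minus strand), measured 13.5, 9.44 and 26.2 CPM in PBS + vehicle and 51.1, 41.4 and 52.2 CPM in bleomycin + vehicle. In bleomycin + NVP-BHG712 it measured 15.2, 14.4 and 12.6 CPM, and the changes were 1.71 ± 0.4 and -1.78 ± 0.44 (edgeR adjusted p = 0.027 and 0.0244). Nr1d1, the gene of the repressor Rev-erb alpha, went the other way, from 26.2, 20.2 and 17.5 CPM in PBS + vehicle to 0, 7.47 and 2.43 CPM in bleomycin + vehicle, a fall of 2.54 ± 0.54.

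The nuclei that are not members moved with them: Cry1 changed there by 1.49 and -1.47 and Nr1d1 by -3.21 and 3.12 in the same 2 comparisons. The hour at which lungs were taken was not stated. The Cry1 rise was lost without PBS + vehicle replicate 1 or 2 or bleomycin + vehicle replicate 2, the Nr1d1 fall without PBS + vehicle replicate 2 or bleomycin + vehicle replicate 3, and the Per2 and Cry1 falls without bleomycin + vehicle replicate 2 or any one bleomycin + NVP-BHG712 library. Of the 8 tested activator, Per and Cry genes 2 rose and none fell between bleomycin and PBS, with a median of 1.05, and of the 6 tested Rev-erb and PAR bZIP output genes 1 fell. The Cry1 promoter is shown since the E-box that clock activators bind is spelled out in it. The stretch is chr10:85185055-85185204 on the minus strand of GRCm38.p6, from RefSeq, ending just before the transcription start, with the E-box CACGTG in capitals.
Cry1 promoter: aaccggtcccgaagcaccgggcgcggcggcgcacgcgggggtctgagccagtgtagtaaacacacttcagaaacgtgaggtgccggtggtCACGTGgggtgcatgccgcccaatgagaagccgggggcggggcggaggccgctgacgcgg
The motif, which reads the same on both strands, starts 60 bases upstream of the start and occurs once. It is present in the 250 bases upstream of 6.02% of 32851 promoters, and in 5 of the 15 clock genes that have an entry (Bhlhe41, Ciart, Cry1, Per1 and Tef). A match of letters is a description and not a measured binding site.

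The balance of rises and falls depended on how libraries were scaled. TMM scaling sets the bulk of genes to no change, and in bleomycin + vehicle members that bulk includes the markers of other cells given above. Relative to the pan-endothelial list, the median of all genes moved to 1.109 between bleomycin and PBS and to -1.209 between NVP-BHG712 and vehicle after bleomycin. Under this scaling 5244 genes (64.1%) rose and 14 (0.171%) fell in the first comparison, and 18 (0.22%) rose and 5474 (66.9%) fell in the second. The changes of Cdh5, Pecam1, Eng, Notch1, Klf4 and Cd36 under NVP-BHG712 then turned slightly negative, at -0.23, -0.39, -0.12, -0.30, -0.20 and -0.01, and those of Flt1, Tie1, Bmpr2, Kdr and Esam between bleomycin and PBS slightly positive, at 0.47, 0.01, 0.03, 0.06 and 0.09.

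A short list of genes was called as falling relative to the pan-endothelial genes as a whole. Without the rule's own Bmp6 and Sox11, 12 genes fell relative to that list between bleomycin and PBS, 16 rose between NVP-BHG712 and vehicle after bleomycin, and 11 were in both. The 11 were Scn7a, Sema6d, Plcb1, Palmd, Emcn, 9530026P05Rik, Tmtc2, Lrrc3b, Grid1, Cyyr1 and Rasgrp3, and Efnb2 made up the 12. Under TMM scaling Palmd and Grid1 were not called between bleomycin and PBS (edgeR adjusted p = 0.0555 and 0.0978). Counts were low for Grid1 (0, 0.575 and 2.65 CPM in bleomycin + vehicle) and Lrrc3b (3.19, 0.575 and 5.63 CPM). Sema6d was at -1.02 ± 0.28 and 1.11 ± 0.28 on this scale (edgeR adjusted p = 0.00699 and 0.00405). Scn7a, a sodium channel of capillaries and nerves, was at -0.92 ± 0.36 and 1.07 ± 0.36, and Rasgrp3 at -0.94 and 1.12. Plcb1, a phospholipase C that many receptors signal through, measured 4030, 5550 and 4900 CPM in PBS + vehicle and 702, 1580 and 2700 CPM in bleomycin + vehicle, with relative changes of -0.53 ± 0.2 and 0.63 ± 0.2. Emcn and Cyyr1 belong to the list they are set against. The 2 comparisons share the bleomycin + vehicle libraries. On this scale no fit was run without single libraries or without mixed members.

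**Figure D4:**
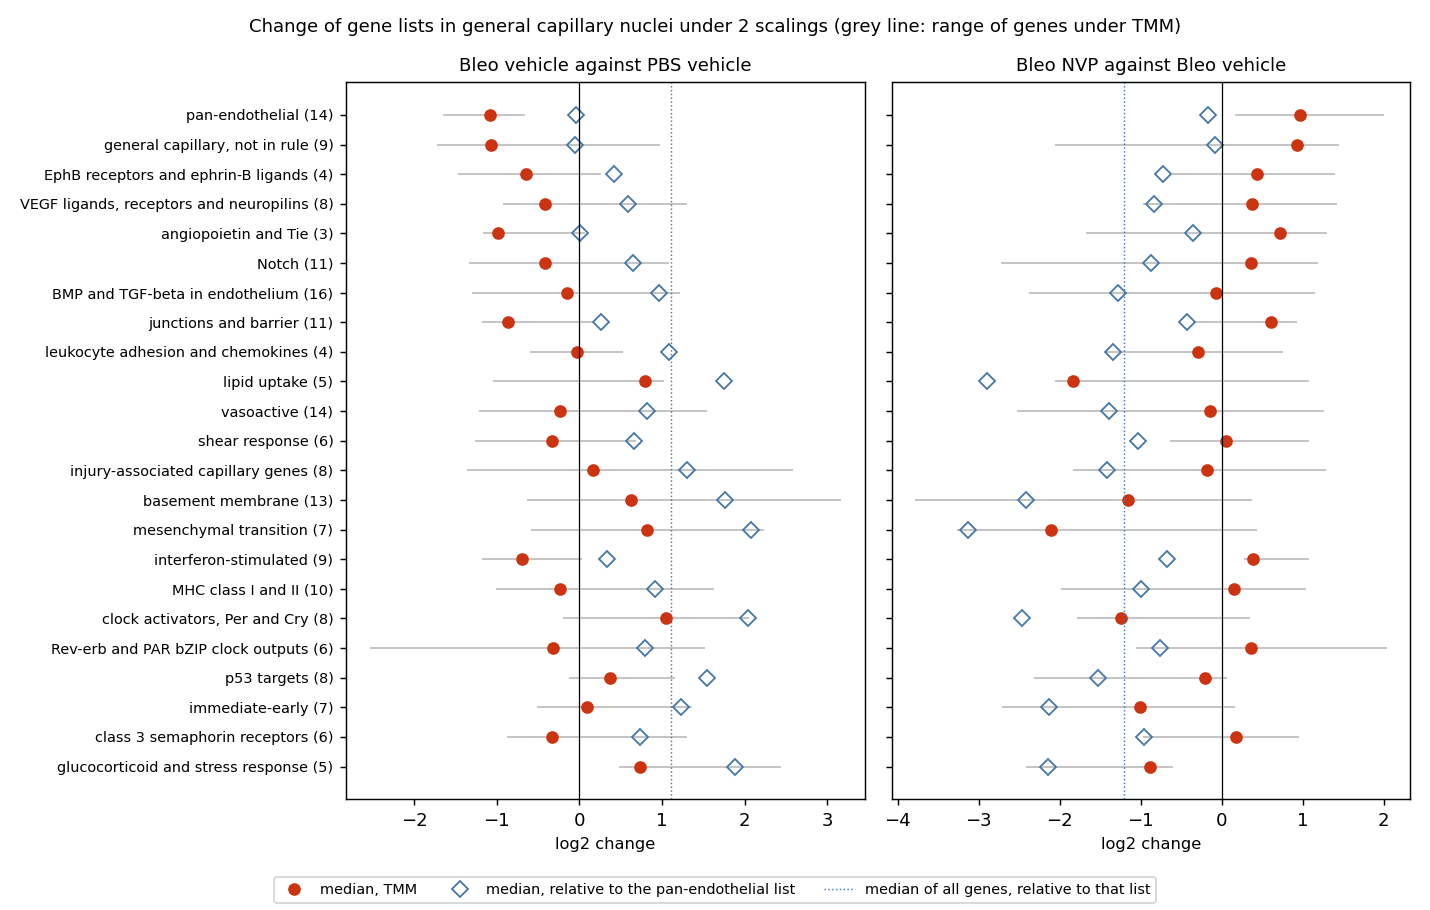
Median log2 change of each gene list in general capillary nuclei (x axis) for the 2 comparisons that share the bleomycin + vehicle libraries, with the number of genes tested after each name. Red points use TMM scaling and grey lines the range of genes under it, open diamonds use library sizes set to the pan-endothelial list, and the dotted line is the median of all genes on that scale (1.109 and -1.209). The pan-endothelial median is at -1.08 under TMM and -0.04 relative to the list in the first comparison, and lists such as Notch change sign between the scalings.

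Aerocytes of the same libraries gave a comparison within each mouse. The change in members minus the change in aerocyte nuclei was tested for 7168 genes, with the library as a block. Between bleomycin and PBS it was called for 42 genes (0.586%), 37 of them with a lower change in general capillary nuclei. Between NVP-BHG712 and vehicle after bleomycin it was called for 70 genes (0.977%), 49 of them with a higher change. Cyyr1 differed by -1.53 (edgeR adjusted p = 0.00277) and 1.27 (edgeR adjusted p = 0.0137), Emcn by -1.72 and 1.76 (edgeR adjusted p = 0.00272 and 0.00286) and Sema6d by -1.40 and 1.21 (edgeR adjusted p = 0.00497 and 0.0226). Cdh5, Pecam1, Cd36 and Egfl7 differed in the same directions, and the tight junction scaffold Tjp1, not called between bleomycin and PBS in members alone, differed by -0.88 and 0.87.

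Efnb2 and Kdr were not shown to differ between the 2 capillary types, with differences of -0.94 and 0.93 for Efnb2 (edgeR adjusted p = 0.197 and 0.234) and -0.40 and 0.98 for Kdr (edgeR adjusted p = 0.779 and 0.0718). Icam1 fell by 1.54 more in members than in aerocytes under NVP-BHG712. Fitted alone, aerocyte sums gave 17 and 29 calls of 4918 genes. Set against all nuclei other than members, the difference was called for 387 (2.7%) and 658 (4.6%) of 14317 genes. Leaving out mixed nuclei of either type gave 34 and 33 calls of 5554 genes, of which 19 and 20 had the lower change in members, so that the direction of the second count turned. The first count was 10, 12, 16, 3 and 21 without PBS + vehicle replicate 2 or 3, bleomycin + vehicle replicate 1 or 2, or bleomycin + NVP-BHG712 replicate 1, and 142 without bleomycin + vehicle replicate 3. The second was 37 and 39 without PBS + vehicle replicates 2 and 3, 22, 8 and 127 without bleomycin + vehicle replicates 1 to 3, and 11, 19 and 13 without bleomycin + NVP-BHG712 replicates 1 to 3.

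**Figure D5:**
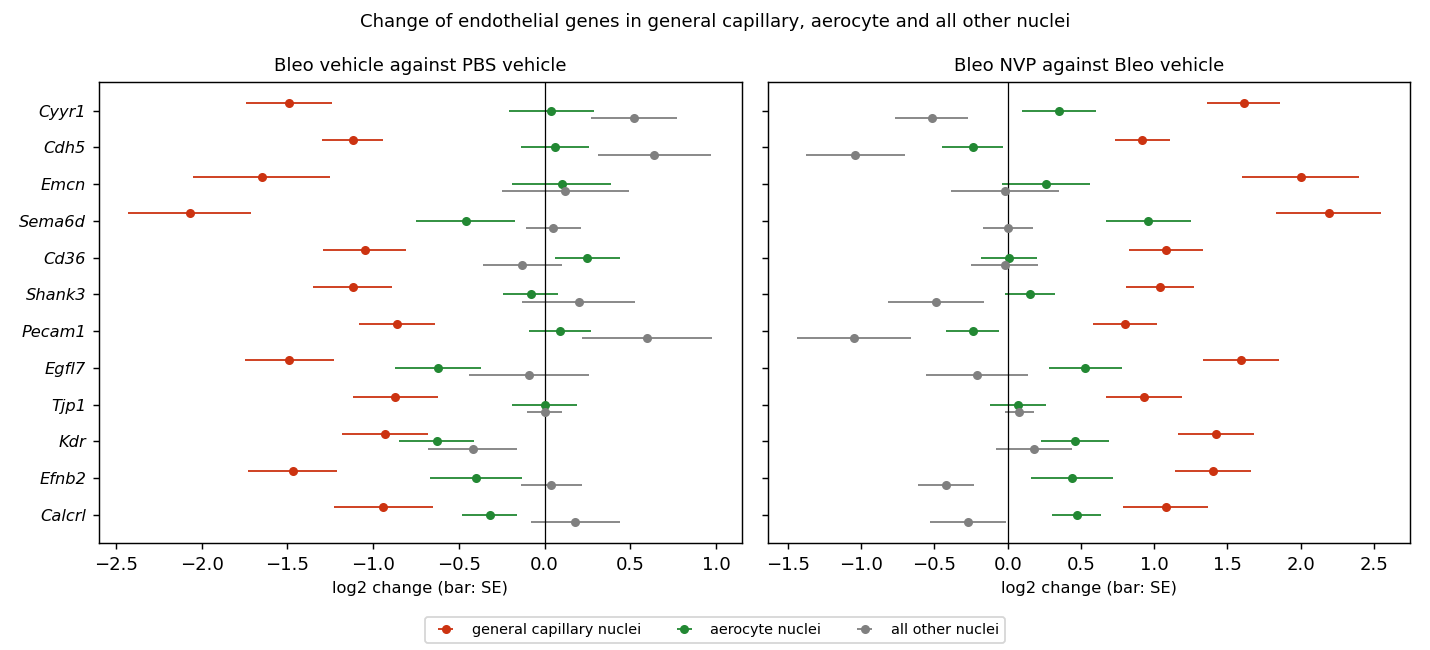
Log2 change (x axis, TMM scaling within each set, bars SE) of 12 endothelial genes in general capillary nuclei, aerocyte nuclei and all other nuclei, for bleomycin + vehicle against PBS + vehicle (left) and bleomycin + NVP-BHG712 against bleomycin + vehicle (right). General capillary nuclei lie below 0 on the left and above 0 on the right for all 12 genes, with Cyyr1 at -1.49 and 1.61. Relative to the pan-endothelial list, Cdh5, Pecam1, Tjp1, Cd36 and Kdr change sign in at least 1 of the comparisons.

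Without bleomycin, NVP-BHG712 gave no called gene in general capillary nuclei by edgeR or DESeq2 (0 of 8186, 0%), with 121 genes at an unadjusted p under 0.05. Values of the 2 groups did not overlap for 5.88% of genes. Cyyr1 measured 2260, 2730 and 2680 CPM in PBS + NVP-BHG712, within 2260 to 3220 CPM in PBS + vehicle, and Sema6d 614, 1090 and 1130 CPM, against 618 to 1500 CPM. Kdr measured 136, 93.2 and 162 CPM and Cdh5 381, 363 and 290 CPM. The PBS libraries of runs 1 and 2, fitted with the run as a block, also gave no call.

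Between bleomycin and PBS in mice that all had NVP-BHG712, again no gene was called by edgeR or DESeq2 (0 of 8186, 0%), with 340 at an unadjusted p under 0.05 and no overlap for 11.3% of genes. Sema6d measured 1160 ± 123 CPM with bleomycin and 945 ± 287 CPM with PBS, Cyyr1 3140 ± 90.2 and 2560 ± 258 CPM, and Efnb2 653 ± 71.7 and 605 ± 77.0 CPM (SD, n = 3). Cry1 measured 14 ± 1.32 and 20.9 ± 11.2 CPM. A p that misses the threshold does not show that these groups were alike.

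The difference between the drug's effect after bleomycin and after PBS was called for 11 genes (0.134%), all negative, with 1475 at an unadjusted p under 0.05. Of the 11, 4 were at least as high in members as in other nuclei (0.101% of the 3960 such genes), among them Rpl13 (-3.54, edgeR adjusted p = 0.04). The others named, AA986860 (-3.09), the glycosyltransferase Mgat4a (-2.95) and the non-muscle myosin Myh14 (-2.88), were lower in members than elsewhere. Mgat4a measured 17.8 ± 5.71, 27.8 ± 4.66, 46.4 ± 12.0 and 8.97 ± 2.09 CPM in PBS + vehicle, PBS + NVP-BHG712, bleomycin + vehicle and bleomycin + NVP-BHG712 (SD, n = 3). Each of these 4 calls was lost without PBS + vehicle replicate 2 or 3, PBS + NVP-BHG712 replicate 1 or 2, bleomycin + vehicle replicate 2 or any one bleomycin + NVP-BHG712 library. The count was at most 2 without any of these libraries, and it was 442 without PBS + vehicle replicate 1, 412 without bleomycin + vehicle replicate 3, 52 without PBS + NVP-BHG712 replicate 3 and 25 without bleomycin + vehicle replicate 1. Sema6d (2.38 ± 0.5), Cyyr1 (1.78 ± 0.35) and Efnb2 (1.59 ± 0.36) did not pass the threshold for this difference (edgeR adjusted p = 0.0591, 0.0591 and 0.0635).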

How the data were processed

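Nuclei of frozen lungs were sorted and run on droplets, 1 library per mouse. The authors deposited count matrices of UMIs per gene and barcode, mapped to mm10 (GRCm38). The submitters' processing notes name Cell Ranger 7.0 and Seurat 4.4.1, and the matrix headers Cell Ranger 7.2.0. Corrections for doublets and free RNA were not run here, so mixed nuclei remain. Of 49163 barcodes, 47319 had 200 to 6000 genes and at most 5% mitochondrial UMIs. In bleomycin + vehicle, 2274 of 3125, 6670 of 7300 and 13277 of 13583 barcodes were kept.

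Deposited counts of members were summed per library, over all 12 libraries in 1 fit, with filterByExpr, TMM factors and edgeR 4.0.16 (robust quasi-likelihood; limma 3.58.1, R 4.3.3), and DESeq2 1.42.0 as an alternative. Adjusted p-values are Benjamini-Hochberg over all genes tested, with calls under 0.05. Aerocyte sums of the same libraries (at least 20 nuclei) entered a model with the library as a block. Shares were compared with two-sided exact permutation tests, also after nuclei with at least 1000 UMIs were thinned to that number and the 7636 shallower ones left out. The edgeR group fit and the model with the library as a block were tested on simulated counts. The membership rule, thinning, share tests and pan-endothelial scaling were not. The replicates are separate mice per the labels.

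Genes were named if called, at a mean of at least 10 CPM over the 12 libraries, without overlap between the groups and at least as high in members as in other nuclei. Mitochondrial genes, predicted genes and those of the rule could not be named. Taken were the 10 largest rises and falls for the comparisons within vehicle and within bleomycin and 4 of each for the others. Calls kept in every leave-one-out fit came first. Up to 3 rises and 3 falls that are lower in members were added, as were Ephb4 and Efnb2. Also added were up to 4 genes per list, by largest absolute change among those tested, whether called or not. Members and lists were chosen with earlier results of these data known. Genes outside this rule, such as Plcb1 and Scn7a, were chosen after their values were seen. Gene coordinates are from GENCODE M21, the promoter from RefSeq. Alternatives were other filters, tools, memberships and scalings, and each library left out. Some results are not reported here.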

Additional observations from a re-analysis of the deposited data

Results flagged for a closer look

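These results were picked out because a difference between 2 effects of the same contrast was itself tested and called. The effect of NVP-BHG712 after bleomycin minus that after PBS was called for 11 genes, with Rpl13 at -3.54, AA986860 at -3.09, Mgat4a at -2.95 and Myh14 at -2.88 (log2, edgeR adjusted p under 0.05). The change between bleomycin and PBS under vehicle in general capillary nuclei minus that in aerocyte nuclei was called for 42 genes. Those named were Cyyr1 (-1.53), Sema6d (-1.40), the fatty acid transporter gene Cd36 (-1.35), Cdh5 (-1.12) and Egfl7 (-0.86). The same difference between NVP-BHG712 and vehicle after bleomycin was called for 70 genes. Cyyr1 (1.27), Sema6d (1.21), Pdgfd (1.2), Adgrl2 (1.13), Cdh5 (1.12), Cd36 (1.10), Egfl7 (1.04), Pecam1 (1.01) and Tjp1 (0.87) had the higher change in general capillary nuclei, and Icam1 (-1.54) the lower one.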

How the results depend on the processing

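The cause of the changes listed here was not tested. The 415 calls between bleomycin and PBS under vehicle became 628 with DESeq2, 63 with only the 6 libraries compared, 221 with stricter membership, 129 without mixed members, 256 with nuclei under 500 UMIs or over 1% mitochondrial left out, 5258 relative to the pan-endothelial list, and 46 to 748 without single libraries. The 716 calls between NVP-BHG712 and vehicle after bleomycin became 469 with stricter membership, 163 without mixed members, 441 with the UMI and mitochondrial limits, 5492 relative to the list, and 150 to 1056 without single libraries. The 11 interaction calls became 257 without a filter on low counts, 253 with DESeq2, 20 with stricter membership, 48 with members that hold a pan-endothelial UMI, 38 without mixed members, 2 with the UMI and mitochondrial limits, 0 without mitochondrial genes, 3452 relative to the list, and 0 to 442 without single libraries. A replicate block gave 780, 1098 and 313 calls, where only PBS libraries 1 and 2 of equal number share a sequencing run by the labels. Same-numbered libraries correlated at 0.423, 0.151 and 0.049 between the PBS groups and at -0.099 to 0.096 with bleomycin + vehicle. Between bleomycin + NVP-BHG712 and the PBS groups they correlated at -0.093 to 0.153, with replicate 2 at 0.141 (PBS + vehicle) and 0.153 (PBS + NVP-BHG712). PBS + vehicle replicate 3 correlated best with PBS + NVP-BHG712 replicate 2 (0.107). Pairing by number was thus not established for all replicates. The 42 and 70 differences from aerocytes became 387 and 658 against all other nuclei in place of aerocytes. Against aerocytes, the second was 33 without mixed nuclei, and the ranges without single libraries were 3 to 142 and 8 to 127. As shares of endothelial nuclei, NVP-BHG712 minus vehicle under PBS was 1.05 points and bleomycin minus PBS under NVP-BHG712 0.719 points, both reversed. Without mixed members, shares of kept nuclei differed by -9.41 points for bleomycin minus PBS under vehicle. They differed by 8.03 points for NVP-BHG712 minus vehicle after bleomycin. Shares of kept nuclei without single libraries ran from -10.4 to -2.73 points (bleomycin minus PBS under vehicle), -1.24 to 6.41 (NVP-BHG712 minus vehicle after bleomycin), -3.62 to 2.3 (under PBS), -4.81 to -0.357 (bleomycin minus PBS under NVP-BHG712) and -6.19 to -3.13 (6 against 6). Relative to the list, the change under NVP-BHG712 after bleomycin turned to -0.17 for Swap70, -0.21 for Immp1l, -0.37 for Cdk13, -0.30 for Notch1, -0.12 for Eng, -0.17 for Tjp1, -0.23 for Cdh5, -0.39 for Pecam1, -0.01 for Cd36, -0.07 for Klf2 and -0.20 for Klf4, and that between bleomycin and PBS to 0.06 for Kdr, 0.47 for Flt1, 0.01 for Tie1, 0.03 for Bmpr2 and 0.09 for Esam. Without mixed members the latter was 0.04 for Flt1 and -0.21 for Tgfb2. Comparisons without a called gene stayed at 0 under every alternative run. Over 224 pairs of a named gene and a comparison, called or not, leaving out single libraries kept the side of the threshold in 2340 fits. It lost the call in 290 and gained one in 46. Member sums of 272711 to 9080197 UMIs leave genes below about 10 CPM poorly measured in the shallow libraries.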
